A study of Mus musculus with 6 samples.

Results

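The genes of urea synthesis and glutamine handling were followed in mouse liver: Cps1, Otc, Ass1, Asl, Arg1, Nags, Slc25a15, Gls2, Glul and Oat, 10 genes of a table of 29981 rows. They were chosen by symbol, and each was found, 9 in a row of their own and Glul in a row that also names the microRNA Mir8114. All 10 passed the filter used for testing, a mean of at least 10 over the 6 libraries. In liver, 8 of them are transcribed mainly near the portal vein and are called periportal here, and 2, Glul and Oat, near the central vein and are called pericentral.

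Ammonia that reaches the liver with portal blood is handled along the path from the portal to the central vein. Periportal hepatocytes release ammonia from glutamine with the liver glutaminase and fix it into urea in a cycle that begins in mitochondria and ends in the cytosol. A narrow layer of hepatocytes around the central vein takes up the ammonia that escaped and binds it into glutamine, a task of glutamine synthetase, whose gene Glul is a classical target of Wnt and beta-catenin signalling.

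Liver RNA came from C57BL/6 mice of 2 groups. In HSKO mice (n = 3) the cholesterol exporter Abca1 was deleted in hepatocytes by a Cre recombinase under the Albumin promoter, so that cells of the liver without that promoter's activity keep the gene. The controls (WT, n = 3), labelled wildtype, are floxed mice according to the series' design text. Both groups were deprived of food for some hours of the day before the liver was taken. The sources used here give neither age, sex nor the floxed exons. The labels do not say that each library came from a separate animal, and p-values therefore measure only the spread between these samples, which may be technical.

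Libraries were shallow, with 838637 to 933319 reads in WT and 631020 to 702013 in HSKO, of which a single row, BC071253, held 43.1% to 57.8%. Without that row, 419807 to 507874 reads were left for WT and 275313 to 346848 for HSKO, and the 10 genes together had 1335 to 2217 reads in a WT library and 548 to 854 in an HSKO library. Abca1 had 20, 36 and 34 reads in WT and 2, 1 and 2 in HSKO, so each library matched its label. Of 16 hepatocyte markers, such as Alb, Apoa1 and Ttr, 7 were called lower in HSKO and 0 higher, where 11.6% and 28.5% of the 2750 rows tested were. The median log2 fold change of the markers was -0.62. It was 0.07 over all rows tested and 0.88 over rows with a mean of at least 50. Reads of the markers made up 2.87% ± 0.731 of a library in WT and 1.21% ± 0.344 in HSKO (SD, n = 3). In whole liver, fewer cells of a type and less RNA per cell cannot be told apart.

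Each value is the deposited one, a number of reads over the size factor of its library. Fold changes are differences of mean log2(value + 1), WT subtracted from HSKO, tested with limma over all 2750 rows and adjusted by Benjamini-Hochberg, and a gene is called where the adjusted p lies below 0.05.

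Both pericentral genes fell in HSKO livers, while no periportal gene was called. Glul and Oat were at about the same level per length in WT, and the HSKO mean was 1.79 times lower for Glul and 2.07 times lower for Oat. Of the 10 genes, 2 were called lower and 0 higher, where 11.6% of all rows tested were called lower and 28.5% higher. These shares depended on level. With a minimum mean of 50, which Glul, Oat and 5 periportal genes passed, 17.2% of rows were called lower and 56.8% higher. The median log2 fold change of those rows was 0.88, against 0.07 for all 2750. Glul and Oat were called lower there too, and no periportal gene was called. At an unadjusted p below 0.05, limma had the same 2 genes and no periportal one.

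Glul encodes glutamine synthetase, which joins ammonia to glutamate. It lies on chromosome 1 from 153899944 to 153909723 on the plus strand (GENCODE M21, mm10), and 93 of the 111 bases of the Mir8114 hairpin lie within an exon of a Glul transcript, so reads of both could not be told apart. Its values were 113, 96.1 and 122 in WT replicates 1 to 3 and 86.2, 52.3 and 46.5 in HSKO replicates 1 to 3. All HSKO libraries lay below all WT libraries, with HSKO replicate 1 nearest to them. Group means were 110.3 ± 13.1 for WT and 61.7 ± 21.4 for HSKO (SD, n = 3). The log2 fold change was -0.87 (SE 0.26, 95% interval -1.43 to -0.32, limma adjusted p = 0.0138). These values rest on 148, 146 and 216 reads in WT and 59, 36 and 35 in HSKO. The call was lost without HSKO replicate 2 (log2 fold change -0.78, adjusted p = 0.0658) or without HSKO replicate 3 (-0.70, adjusted p = 0.0597).

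Oat encodes the mitochondrial ornithine aminotransferase, which turns ornithine into glutamate semialdehyde and so feeds glutamate to the same pericentral cells. It lies on chromosome 7 from 132557478 to 132576398 on the minus strand. Its values were 77.1, 92.1 and 85.2 in WT against 57.0, 24.7 and 41.2 in HSKO. The groups did not overlap, and HSKO replicate 2 was the lowest library. Group means were 84.8 ± 7.53 for WT and 41.0 ± 16.1 for HSKO (SD, n = 3), and the log2 fold change was -1.10 (SE 0.29, 95% interval -1.70 to -0.51, limma adjusted p = 0.00509). Its reads were 101, 140 and 151 in WT against 39, 17 and 31 in HSKO, and the call held without any single library, with adjusted p between 0.00522 and 0.0480.

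Both calls were lost when libraries were scaled to the hepatocyte markers, which were themselves lower in HSKO. With that scaling the log2 fold change was -0.30 for Glul (adjusted p = 0.553) and -0.53 for Oat (adjusted p = 0.243), while the median of all rows was 0.62. How far the lower share of hepatocyte transcripts took part in the fall of Glul and Oat was not tested.

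**Figure D1:**
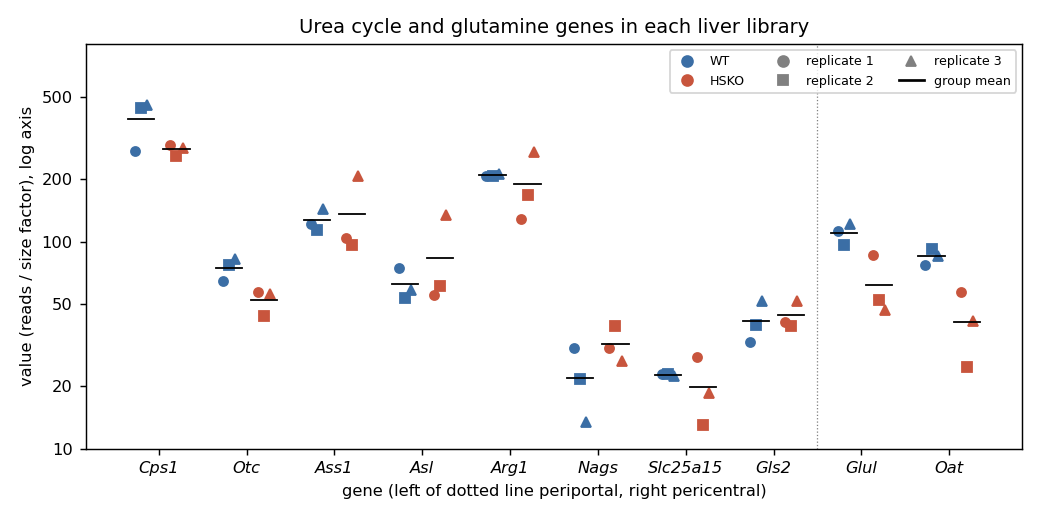
Value of each gene (reads divided by the size factor, log axis) in the 6 libraries, WT in blue and HSKO in red, with the marker shape giving the replicate and a bar the group mean. For Otc, Glul and Oat the groups do not overlap, and HSKO replicate 3 is the highest library for Ass1, Asl and Arg1.

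Since Glul and Oat moved together, the 250 bases before the RefSeq start of each are shown (build GRCm38.p6, the assembly of mm10), beside those of Ass1 and Otc, periportal genes that were not called. RefSeq promoters were found for 6 of the 10 genes. Capitals mark every match, on either strand, to CCAAT (the CCAAT box), GGGCGG (the GC box), CTTTGA (the core bound by TCF and LEF factors), TATAAA (the TATA box), TGACG (a CREB site core), TTGCNNAA (a C/EBP core) and TGTTCT (a glucocorticoid receptor half-site). The windows are chr1:153899679-153899928 on the plus strand for Glul, chr7:132576399-132576648 on the minus strand for Oat, chr2:31470020-31470269 on the plus strand for Ass1 and chrX:10252055-10252304 on the plus strand for Otc.
Glul: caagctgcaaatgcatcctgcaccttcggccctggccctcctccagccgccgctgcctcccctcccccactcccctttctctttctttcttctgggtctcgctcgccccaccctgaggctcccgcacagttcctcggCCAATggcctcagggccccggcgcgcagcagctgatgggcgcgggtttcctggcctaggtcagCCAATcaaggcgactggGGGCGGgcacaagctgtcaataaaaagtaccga
Oat: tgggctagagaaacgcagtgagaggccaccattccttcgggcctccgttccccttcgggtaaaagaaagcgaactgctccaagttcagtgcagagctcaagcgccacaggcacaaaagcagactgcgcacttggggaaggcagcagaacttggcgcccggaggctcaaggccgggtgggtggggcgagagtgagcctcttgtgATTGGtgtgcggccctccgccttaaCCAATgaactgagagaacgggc
Ass1: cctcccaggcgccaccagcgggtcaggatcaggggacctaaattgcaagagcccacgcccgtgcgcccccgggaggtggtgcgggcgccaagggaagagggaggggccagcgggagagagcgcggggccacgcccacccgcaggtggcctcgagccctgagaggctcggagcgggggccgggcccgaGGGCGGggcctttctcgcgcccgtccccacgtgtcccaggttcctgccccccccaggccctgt
Otc: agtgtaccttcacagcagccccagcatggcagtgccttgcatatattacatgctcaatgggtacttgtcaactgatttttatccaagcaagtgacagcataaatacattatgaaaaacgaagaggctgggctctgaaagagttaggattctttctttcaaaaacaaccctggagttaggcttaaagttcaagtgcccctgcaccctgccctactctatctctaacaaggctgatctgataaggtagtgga

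The windows of Glul and Oat each held 2 CCAAT boxes, at -113 and -50 and at -47 and -22 from the start, and that of Glul also 1 GC box. At least 1 CCAAT box occurred in 33.8% and at least 1 GC box in 33.0% of 32536 different windows of this length. The share of windows with 2 was not counted. The window of Ass1 held 1 GC box, at -63, and that of Otc held none of the 7 motifs. GENCODE M21 starts Ass1 at 31470207, before the RefSeq start, so by that annotation the end of its window, with the GC box, lies within the gene. Nags, whose window is not shown, had 1 TCF/LEF core, which 13.9% of windows held. A match is a description of the letters and no evidence of a bound site.

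Cps1 and Otc, of the steps of urea synthesis in mitochondria, showed lower means in HSKO without a call. Cps1, carbamoyl phosphate synthetase, which takes ammonia into the cycle, lies on chromosome 1 from 67123026 to 67231259. Its values were 272, 441 and 458 in WT against 294, 259 and 283 in HSKO. The 3 HSKO libraries lay close together and WT replicate 1 lay among them, so the groups overlapped. The log2 fold change was -0.45 (95% interval -0.96 to 0.06, adjusted p = 0.144), and without WT replicate 1 it was -0.69 and called (adjusted p = 0.0213).

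Otc, ornithine transcarbamylase, joins carbamoyl phosphate to ornithine and lies on chromosome X from 10252305 to 10321024. Its values were 64.9, 77.0 and 82.3 in WT against 57.0, 43.6 and 55.9 in HSKO. No HSKO library reached a WT library, but the difference did not pass (log2 fold change -0.51, 95% interval -1.03 to 0.002, adjusted p = 0.103). With Glul and Oat it made 3 of the 10 genes whose HSKO libraries all lay below WT, as did 20.1% of all rows tested.

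The calls of Cps1 and Otc depended on how libraries were scaled. Cps1 was called lower with quantile normalization, DESeq2, edgeR and both scalings to total reads (adjusted p between 0.00193 and 0.0322), and Otc with all of these but DESeq2 (adjusted p between 0.00245 and 0.0174). Scaled to hepatocyte markers, their log2 fold changes were 0.13 and 0.06 (adjusted p = 0.777 and 0.901). Cps1 and Otc kept a like proportion to each other: their ratio was 4.20, 5.73 and 5.56 in WT against 5.15, 5.93 and 5.07 in HSKO, and the groups overlapped.

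Nags makes N-acetylglutamate, without which carbamoyl phosphate synthetase is inactive, and lies on chromosome 11 from 102145513 to 102149477. It was the periportal gene with the highest log2 fold change, 0.59 (95% interval -0.06 to 1.23, adjusted p = 0.133). Its values were 30.5, 21.7 and 13.5 in WT against 30.7, 39.3 and 26.6 in HSKO, from 20 to 40 reads a library. WT replicate 3 was lowest, and WT replicate 1 lay within the HSKO range. It was called higher without WT replicate 1 (log2 fold change 0.85, adjusted p = 0.0419) and when scaled to hepatocyte markers (1.14, adjusted p = 0.0184), and its log2 fold change was -0.06 with scaling to total reads.

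Slc25a15, on chromosome 8 from 22375551 to 22398597, carries ornithine into mitochondria. Its values were 22.9, 23.0 and 22.6 in WT against 27.8, 13.1 and 18.6 in HSKO, with the HSKO libraries on both sides of the WT values. Its log2 fold change was -0.26 (95% interval -0.89 to 0.38, adjusted p = 0.512), with 9 to 19 reads in an HSKO library. Scaled to total reads, it passed as lower (-0.90, adjusted p = 0.0348).

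The cytosolic enzymes Ass1, Asl and Arg1 differed among HSKO libraries more than between groups. Ass1, argininosuccinate synthase, lies on chromosome 2 from 31470207 to 31520672, and its values were 122, 114 and 144 in WT against 104, 96.0 and 207 in HSKO. Asl, argininosuccinate lyase, lies on chromosome 5 from 130011258 to 130029247, and its values were 74.8, 53.3 and 58.7 in WT against 55.5, 61.1 and 134 in HSKO. In both genes HSKO replicate 3 stood above the other 5 libraries, and HSKO replicates 1 and 2 lay within or below the WT range.

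Arg1, the liver arginase that releases urea, lies on chromosome 10 from 24915221 to 24927484. It was very even in WT at 208, 208 and 213 and uneven in HSKO at 129, 169 and 269.96. Its SD was 2.60 in WT against 72.8 in HSKO. HSKO replicate 3 was again the highest library and the other HSKO libraries lay below WT.

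None of these 3 enzymes was called. The log2 fold changes of Ass1, Asl and Arg1 were 0.02, 0.32 and -0.22, with 95% intervals of -0.56 to 0.60, -0.31 to 0.95 and -0.76 to 0.33 (adjusted p = 0.967, 0.408 and 0.518). Without HSKO replicate 3 they were -0.33, -0.08 and -0.51 (adjusted p = 0.315, 0.829 and 0.126). Arg1 was called lower with quantile normalization and both scalings to total reads (adjusted p between 0.0117 and 0.0203), and Asl higher when scaled to hepatocyte markers (0.89, adjusted p = 0.0266). HSKO replicate 3 also had the highest share of hepatocyte marker reads among HSKO libraries, 1.60% against 0.991% and 1.03%, and the part of that in these values was not tested.

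Gls2, the liver glutaminase, opens the periportal use of glutamine and lies on chromosome 10 from 128194457 to 128210004. Its values were 32.8, 39.5 and 51.9 in WT against 40.9, 39.3 and 51.9 in HSKO, nearly the same span in both groups. Its log2 fold change was 0.10 (95% interval -0.45 to 0.65, adjusted p = 0.782).

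**Figure D2:**
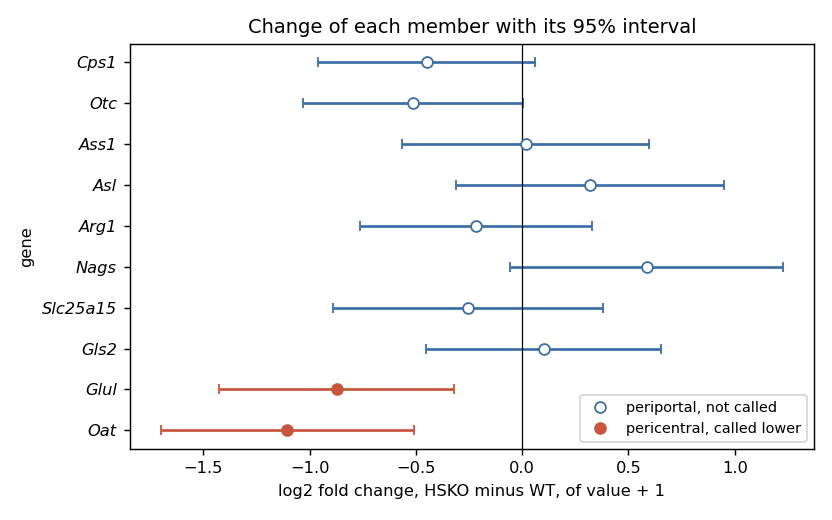
Log2 fold change (HSKO minus WT, of value + 1) of each gene with its 95% interval from limma, periportal genes in blue and pericentral ones in red, filled where called. The intervals of Glul and Oat lie below 0, that of Otc reaches 0.002, and the other 7 include 0.

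The balance of periportal to pericentral transcripts within a library does not depend on the size factor. The summed values of the 8 periportal genes were 829, 977 and 1043 in WT against 738, 720 and 1048 in HSKO, and those of Glul plus Oat were 190, 188 and 207 in WT against 143, 77.1 and 87.8 in HSKO. The ratio of the first sum to the second was 4.36, 5.19 and 5.04 in WT against 5.15, 9.34 and 11.9 in HSKO. Its mean was 4.86 ± 0.443 against 8.81 ± 3.42 (SD, n = 3). HSKO replicates 2 and 3 stood above every WT library, and HSKO replicate 1 lay within the WT range. No p is given for this ratio, since its genes were chosen.

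Cps1, with the highest values of the 8 in WT, weighs most in that sum. Without it the ratio was 2.93, 2.85 and 2.83 in WT against 3.10, 5.98 and 8.71 in HSKO, and the groups did not overlap. Both genes of the denominator were called lower, while the periportal sum had a mean of 950 in WT and 835 in HSKO. For single rows tested, every HSKO ratio to Glul lay above WT in 51.6%, and every ratio to Oat in 59.1%. The share for ratios to Glul plus Oat was not computed. The higher summed ratios are therefore no result about the periportal genes. Glul was the larger part of the sum of Glul and Oat in every library. The sum of all periportal genes over Glul alone overlapped between groups, and over Oat alone it did not. The ratio of Glul to Oat was 1.47, 1.04 and 1.43 in WT against 1.51, 2.12 and 1.13 in HSKO, with overlapping groups.

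Each periportal gene was also set against Glul and against Oat in the same library. All 8 had a higher mean ratio to Glul in HSKO, as did 91.7% of the other rows tested, and in 4 of the 8 every HSKO library lay above every WT library, as in 51.6% of rows. All 8 had a higher mean ratio to Oat, as did 96.3% of rows, and in 6 the groups did not overlap, as in 59.1% of rows. The ratios share denominators that were called lower, and the counts lie near the shares of all rows, so they are no result about the periportal genes. The ratio of the glutaminase gene to the glutamine synthetase gene, Gls2 to Glul, was 0.291, 0.411 and 0.426 in WT against 0.475, 0.750 and 1.11 in HSKO. Every HSKO library lay above every WT library, and in HSKO replicate 3 the glutaminase value exceeded that of the synthetase.

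**Figure D3:**
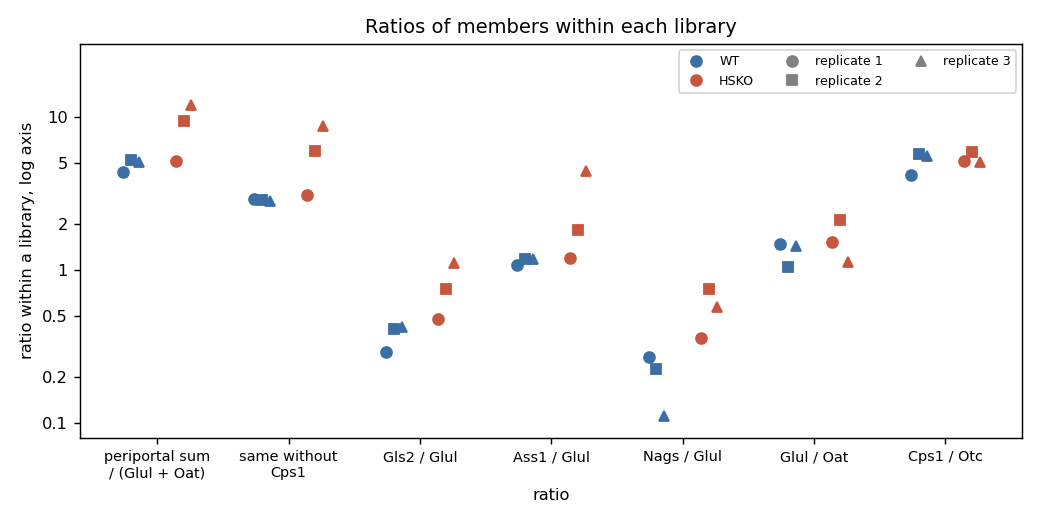
Ratios of values within each library (log axis), WT in blue and HSKO in red, with the marker shape giving the replicate. Gls2 to Glul, Ass1 to Glul and Nags to Glul are higher in every HSKO library than in any WT library, while Glul to Oat and Cps1 to Otc overlap. The ratios of Cps1, Otc, Asl and Arg1 to Glul, not shown, also overlap. Against Glul, 4 of the 8 periportal genes had groups that did not overlap, as had 51.6% of the other rows tested.

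Glul and Oat stayed below the periportal genes across processing choices, many of which could hardly change that order. Glul and Oat both had a lower log2 fold change than every periportal gene tested in the fit as described and in 20 of 20 alternatives, although the level of all of them moved with the scaling. From scaling to hepatocyte markers to scaling to total reads, the periportal genes went from between 0.06 and 1.14 to between -1.18 and -0.06, and Glul and Oat from -0.30 and -0.53 to -1.54 and -1.77. The direction of Ass1, Asl, Arg1, Gls2, Nags, Slc25a15, Cps1 and Otc turned within this range, and that of Glul and Oat did not. In the fit as described, 90.9% of the other rows tested also lay above both. The alternatives share their libraries, so they do not test the order separately. Dropping the filter or the trend, robust estimation and the replicate block leave these fold changes as they are. A scaling by 1 factor for each library shifts all genes by nearly the same amount. The order under these settings was therefore all but fixed beforehand and is no sign of robustness.

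**Figure D4:**
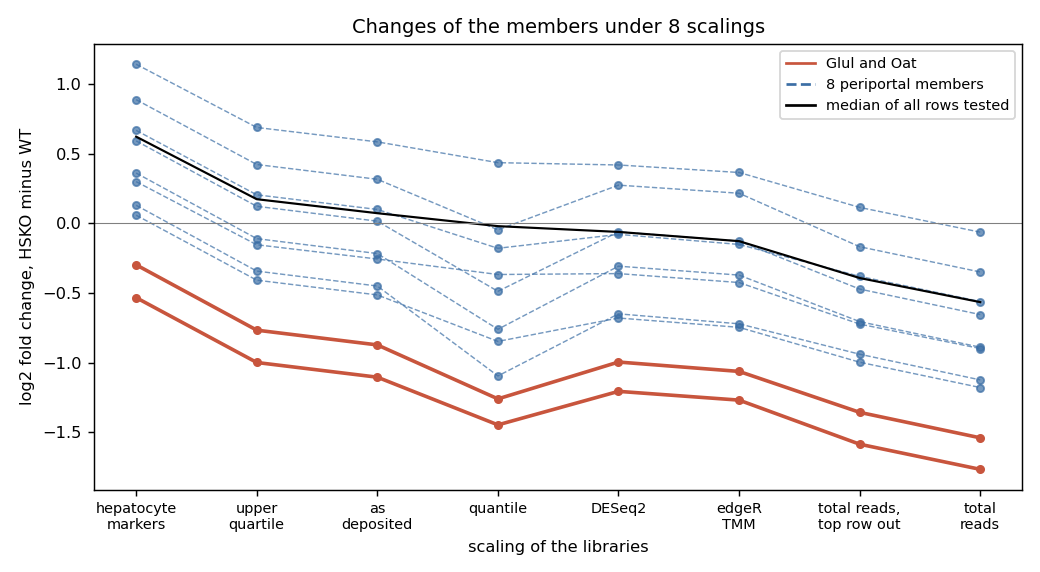
Log2 fold change of each gene (HSKO minus WT) under 8 scalings of the libraries, Glul and Oat as red lines, the 8 periportal genes as dashed blue lines and the median of all rows tested in black. The red lines lie below every blue line at each scaling, and every line ends lower at the right than it starts at the left, the median going from 0.62 to -0.57. Apart from quantile normalization, a scaling moves all genes nearly alike, so it could hardly change the order of the lines.

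Levels of different genes were compared per kilobase of the principal GENCODE M21 transcript of each. In WT, Arg1 was highest at 142 ± 1.76 per kilobase, followed by Ass1 at 74.6 ± 9.13, Cps1 at 70.3 ± 18.5, Glul at 39.5 ± 4.68 and Oat at 39.4 ± 3.50 (SD, n = 3). Below them came Otc at 32.2 ± 3.86, Asl at 25.8 ± 4.63, Gls2 at 16.1 ± 3.76, Nags at 10.8 ± 4.19 and Slc25a15 at 6.66 ± 0.0708. In this order Arg1 stood clear of Ass1, Cps1 of Glul, Oat of Otc and Asl of Gls2, while the libraries of the other neighbours overlapped. The carrier Slc25a15 and the activator enzyme gene Nags were thus the lowest on this scale, and the arginase gene the highest.

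In HSKO the first 3 and the last 3 genes kept their places on the per kilobase scale. Glul went from place 4 to 6, at 22.1 ± 7.68, and Oat from 5 to 7, at 19.0 ± 7.50, behind Asl at 34.7 ± 18.2 and Otc at 22.5 ± 3.20 (SD, n = 3). The libraries of Asl, Otc, Glul and Oat overlapped from each place to the next in HSKO.

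Other pericentral genes were mostly lower in HSKO as well. Of 21 on the list, 12 were tested, of which 7 were called lower, 1 higher and 4 neither. Among all rows tested, 11.6% were called lower and 28.5% higher. The list had a median log2 fold change of -0.88, against 0.07 over all rows tested and 0.88 over rows with a mean of at least 50. The genes called lower were Rgn (-1.41), Aldh1a1 (-1.42), Slco1b2 (-1.10), Cyp2c29 (-1.01), Slc1a2 (-1.04), Cyp1a2 (-0.93) and Cyp2e1 (-0.82), with limma adjusted p between 0.000912 and 0.0138. Cyp2e1, a cytochrome P450 of the pericentral zone, had means of 1395 ± 18.0 for WT and 801 ± 161 for HSKO, and the glutamate transporter gene Slc1a2, which shares the pericentral layer with Glul, at 27.8 ± 3.88 and 13.3 ± 3.67 (SD, n = 3). The row of Cyp2c29 also names a pseudogene. Cyp2e1 and Cyp1a2 lost their calls without HSKO replicate 3 (adjusted p = 0.0567 and 0.0751), and Slc1a2 without WT replicate 2 (0.0638). Nr1i3, the xenobiotic receptor CAR, was the 1 called higher, from 39.0 ± 1.94 to 97.0 ± 22.4 (adjusted p = 0.00114).

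Other periportal genes were mixed. Of 20 on the list, 17 were tested, of which 1 was called lower, 2 higher and 14 neither, and the median was -0.21. Among all rows tested, 11.6% were called lower and 28.5% higher. Pck1, of gluconeogenesis, had a log2 fold change of 0.68, Sds, the serine dehydratase that releases ammonia from serine, 1.12 and Uox, the urate oxidase, -0.64 (adjusted p = 0.0201, 0.0213 and 0.0307). The values of Sds were 12.2, 11.8 and 20.9 in WT against 42.4, 16.0 and 50.5 in HSKO, with HSKO replicate 2 inside the WT range, and its call was lost without HSKO replicate 3 (adjusted p = 0.108) or HSKO replicate 1 (0.105), WT replicate 1 (0.0551) or WT replicate 2 (0.0744). Pck1 lost its call without WT replicate 2 or HSKO replicate 2, and Uox without either of these, WT replicate 3 or HSKO replicate 1 (adjusted p between 0.0605 and 0.117 in all these cases). Pck1, Sds and Uox all lost their calls without the filter on low values. Both scalings to total reads removed the calls of Pck1 and Sds. Pck1 was also not called with quantile normalization, edgeR or no trend, and Uox with upper quartile scaling, scaling to hepatocyte markers or no trend. Scaled to hepatocyte markers, 1 of the other pericentral genes was lower, Rgn, and 2 higher, Nr1i3 and Cyp7a1, while 0 of the other periportal genes were lower and 3 higher, Pck1, Sds and Etnppl. The split of periportal calls turned to 7 lower and 1 higher with edgeR.

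**Figure D5:**
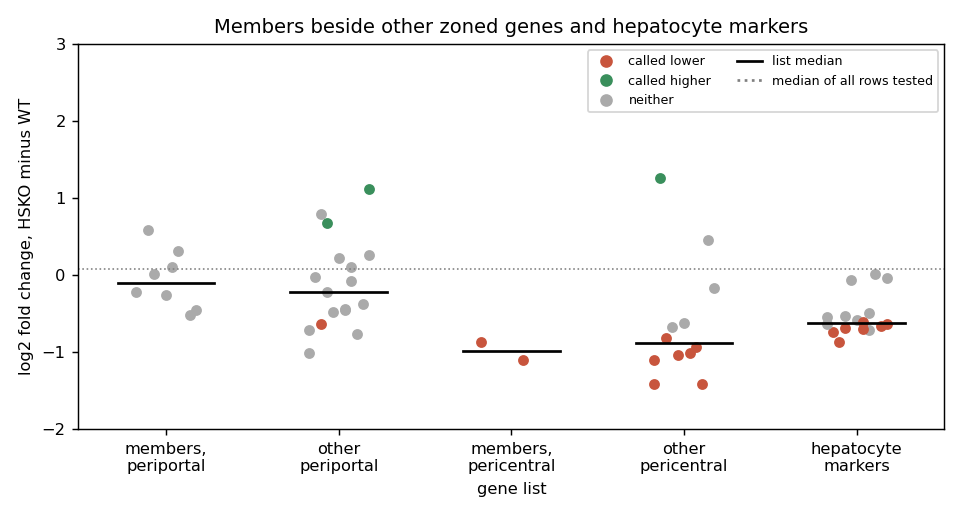
Log2 fold change (HSKO minus WT) of the tested genes in 5 lists, each point a gene, red where called lower, green where called higher and grey where neither, with the list median as a bar and the median of all rows tested as a dotted line. Glul and Oat lie among the other pericentral genes, whose median is -0.88, and the hepatocyte markers have a median of -0.62.

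Most tested genes that bring ammonia and aspartate to the cycle were not called. Of 20 on the list, 15 were tested, 3 were called lower, 1 higher and 11 neither, with a median log2 fold change of -0.12. Among all rows tested, 11.6% were called lower and 28.5% higher. Slc25a13, the mitochondrial carrier that exports aspartate for argininosuccinate synthesis, was at 25.9, 28.3 and 33.8 in WT and 11.7, 17.4 and 12.0 in HSKO. The groups did not overlap, and the log2 fold change was -1.06 (SE 0.29, adjusted p = 0.00756). Scaled to hepatocyte markers, it was -0.51 and not called (adjusted p = 0.252). Glud1, the glutamate dehydrogenase, and Aldh4a1, which makes glutamate from the product of Oat, were the other 2 called lower, named here as members of that count, with log2 fold changes of -0.71 and -0.81 (adjusted p = 0.0350 and 0.0219). Both lost their calls when scaled to hepatocyte markers and when either WT replicate 2 or HSKO replicate 3 was left out, and Glud1 also without WT replicate 3 or HSKO replicate 1 (adjusted p between 0.0736 and 0.787). Both calls were also lost without the filter on low values, and that of Glud1 with upper quartile scaling and with no trend. The 1 called higher was Sds.

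Among carriers of amino acids, ammonia and urea, 6 of 18 were tested and 1 was called, Slc1a2. It was lower, as were 11.6% of all rows tested. Slc38a3, a glutamine transporter of hepatocytes, was at 116, 131 and 135 in WT and 78.9, 96.0 and 86.4 in HSKO. Its groups did not overlap, but its log2 fold change of -0.55 did not pass (adjusted p = 0.0668). It was called lower with quantile normalization, DESeq2, edgeR, both scalings to total reads and a minimum mean of 50 (adjusted p between 0.000806 and 0.0316), and scaled to hepatocyte markers it was 0.03 (adjusted p = 0.947). The pericentral ammonia channel gene Rhbg was below the filter, at a mean of 0.728 in WT and 0.487 in HSKO.

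Of 17 regulators linked to urea cycle genes, 9 were tested, 2 were called lower, 1 higher and 6 neither, with a median of -0.06. Among all rows tested, 11.6% were called lower and 28.5% higher. Cebpb, a transcription factor induced by glucagon and glucocorticoid signals, rose from 64.9, 59.9 and 47.9 in WT to 127, 108 and 168 in HSKO (log2 fold change 1.19, SE 0.25, adjusted p = 0.00142). No HSKO library reached down to WT. Its call was lost with scaling to total reads (log2 fold change 0.53, adjusted p = 0.0975). Onecut1, in a row that also names a predicted gene, was at 15.3, 27.6 and 18.0 in WT and 8.77, 10.2 and 9.31 in HSKO (log2 fold change -0.99, adjusted p = 0.0254), and its call was lost without WT replicate 2 (adjusted p = 0.185) or WT replicate 3 (0.0649). Creb3l3, a fasting-responsive factor of hepatocytes, was the other 1 lower (-0.82, adjusted p = 0.0394), a call lost without WT replicate 1 (0.121), WT replicate 3 (0.0824) or HSKO replicate 2 (0.258). Onecut1 and Creb3l3 also lost their calls when scaled to hepatocyte markers and without the filter on low values. Creb3l3 lost its call with upper quartile scaling and with no trend as well.

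Markers of other liver cells were at low values. Endothelial markers summed to 46.6 to 55.8 in WT and 27.9 to 42.4 in HSKO over 13 genes, none of which passed the filter and of which Wnt9b was at 0. Stellate cell markers summed to 51.9 to 54.7 and 21.9 to 43.6 over 11 genes, of which Dcn was the 1 tested and called lower. Kupffer cell markers summed to 63.3 to 108.6 and 52.3 to 87.8 over the 11 of 12 with a row, with Cd5l lower of 2 tested, a call lost without any 1 of WT replicates 2 and 3 and HSKO replicates 1 and 2 (adjusted p between 0.106 and 0.248). Cholangiocyte markers summed to 13.5 to 17.8 and 7.27 to 17.5 over 7 genes, with Krt19 and Krt7 at 0, and lymphocyte and neutrophil markers to at most 3.99 in any library over the 7 of 9 with a row, with Cd3e, Nkg7, S100a8 and S100a9 at 0. Red cell markers summed to 14.1 to 25.0 and 14.5 to 21.3 over the 4 of 5 with a row. Sums of endothelial and stellate cell markers were lower in each HSKO library than in any WT library, as were Glul, Oat and 20.1% of single rows tested. That share is of rows that passed the filter, which of these markers only Dcn did. Without the filter, the median log2 fold change of all rows was -0.22. The lower sums are therefore no result about these cells. Whether these cells had a part in the fall of Glul and Oat was not tested.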

How the data were processed

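The deposited table gives 1 signal for each gene row in each library, namely gene-level reads over a library's size factor. Tools listed in the submitters' processing notes, without their order, are DESeq 1.16.0, RSEM 1.2.9, Bowtie and FastQC 0.11.3, and the build is mm10. The kit was one for stranded mRNA, per the labels' protocols; the sources used here state neither annotation nor strand setting. Dividing by the value of 1 read gave whole reads for 100% of values within 0.001.

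The main test was limma 3.58.1 (R 4.3.3) with a mean-variance trend on log2(value + 1), for the 2750 rows whose mean was at least 10, 2-sided, at an adjusted p below 0.05. Recovered reads were also tested with DESeq2 1.42.0 and edgeR 4.0.16 (TMM), which called 909 and 1285 rows.

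Named genes are the 10 members, Abca1, the 2 genes of smallest p in each list, and every called gene of the zonation lists; others are said to be members of a count. Members and lists were chosen with earlier results of these data known. Alternatives were a minimum mean of 50, no filter, pseudocounts of 0.5 and 10, 5 scalings, no trend, robust estimation, a replicate block, both count tools and each library left out. The procedure was tested on simulated data. Chi-square over its degrees of freedom was 2.12 between HSKO replicates 1 and 2 and 5.85 to 21.0 between other pairs of libraries. No pair thus differed by counting noise alone, and each library counted once. These values cannot show that the libraries came from separate animals. With 3 against 3, an exact permutation test cannot go below 0.1, so none was used.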

Additional observations from a re-analysis of the deposited data

How the results depend on the processing

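The log2 difference of the periportal to pericentral ratio, 0.78, lay between 0.52 and 1.12 with each library left out and between 0.68 and 0.94 under its other definitions. Pericentral genes called lower numbered 0 with scaling to hepatocyte markers and 1 to 2 with a library left out. Periportal genes called lower numbered 4 with scaling to total reads, 3 without the top row, 3 with quantile normalization, 1 with DESeq2, 2 with edgeR and 0 to 1 with a library left out, and those called higher 2 with scaling to hepatocyte markers and 0 to 1 with a library left out. Directions turned with scaling to hepatocyte markers for Cps1 (0.13), Otc (0.059), Arg1 (0.36), Slc25a15 (0.30), Slc38a3 (0.031) and Agmat (0.16), and with scaling to total reads for Ass1 (-0.65), Asl (-0.35), Gls2 (-0.56), Nags (-0.063) and Pck1 (-0.0003). Total reads without the top row gave Ass1 -0.47, Asl -0.17 and Gls2 -0.38, quantile normalization -0.49, -0.046 and -0.18, DESeq2 -0.060 for Ass1 and -0.079 for Gls2, and edgeR -0.13 and -0.15. With a library left out, Ass1 ranged from -0.33 to 0.22, Asl from -0.080 to 0.55, Arg1 from -0.51 to 0.026 and Gls2 from -0.050 to 0.27. Over all rows, higher and lower calls numbered 783 and 320, against 848 and 208 with upper quartile scaling, 1114 and 24 with hepatocyte markers, 221 and 1044 with total reads, 429 and 913 without the top row, 595 and 502 with quantile normalization, 684 and 601 with edgeR, 584 and 325 with DESeq2, 624 and 211 without a filter and 391 and 118 at a minimum mean of 50. Lower calls were 159 without WT replicate 2 and 157 without WT replicate 3. The cause of these shifts was not tested.

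Same-numbered libraries did not deviate together (correlations of -0.03, -0.03 and -0.02). With the replicate block, Glul and Oat kept their calls (adjusted p = 0.0210 and 0.00893), 0 periportal genes were called, and 751 and 269 of all rows were higher and lower; Uox lost its call (adjusted p = 0.0544). Changes whose interval included 0 could not be told from 0 with these libraries.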

Other observations

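Most genes that use glutamine or ornithine for synthesis were below the filter on low values. Of 9 genes of glutamine-consuming synthesis, such as Cad, Gfpt1 and Ppat, 0 passed the filter. The summed value of the 9 was 14.5 to 22.6 in WT and 9.31 to 13.1 in HSKO, lower in each HSKO library than in any WT library. The same held for 20.1% of single rows tested, and the median log2 fold change of all rows without the filter was -0.22. The lower sum is therefore no result about these genes. Without the filter, limma tested 8 of the 9 and called 0 higher and 0 lower, with 2 at an unadjusted p below 0.05. Of 20 genes of arginine, ornithine, polyamine and proline use, 3 were tested and 0 called, with 0 at an unadjusted p below 0.05 and 0 called by DESeq2 or edgeR. Ddah1 was called lower with both scalings to total reads and without HSKO replicate 1 (adjusted p between 0.0112 and 0.0345), and Agmat with total reads (0.0372). Ddah1, which breaks down methylarginines, had means of 19.1 ± 1.73 for WT and 12.3 ± 6.60 for HSKO, and Agmat, an agmatinase, at 15.4 ± 1.67 and 12.1 ± 4.57 (SD, n = 3, limma adjusted p = 0.121 and 0.399). Nos2 had no reads in any library.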
